A study of Mus musculus with 9 samples.

Results

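The elastic fibre genes *Eln*, *Fbn1*, *Fbn2*, *Fbln1*, *Fbln2*, *Fbln5*, *Efemp1*, *Efemp2*, *Mfap4* and *Mfap5* were read across fibroblast types, lineages and injury states of mouse knee stromal cells. They are 10 of the 54534 genes in the deposited gene lists, found there by symbol, and 10 of the 26367 genes with at least 1 unique molecular identifier (UMI) in a kept cell. UMIs of all 10 were found in each of the 9 libraries. The set was chosen by earlier values of these same data: *Eln* was selected on its steady-state levels, having a higher level in the Tom-GFP+ than in the Tom+ steady-state libraries, and the other 9 belong to the same fibre. For that reason the steady-state levels are described without a test, and so are the injury changes of *Eln* and its differences between gates, which rest on the same libraries.

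Elastic fibres give connective tissue its recoil. They consist of a core of cross-linked elastin laid down on a scaffold of fibrillin microfibrils, and fibulins, microfibril-associated proteins and lysyl oxidases join in their assembly. In the synovium, the soft tissue that lines the joint, such matrix is made by fibroblasts of the sublining, whereas the lining fibroblasts, or fibroblast-like synoviocytes (FLS), form the surface layer and secrete lubricin.

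All mice carried *Gdf5-Cre*, a tdTomato (Tom) reporter that Cre switches on, and *Pdgfrα-H2BGFP*, and were aged 11 to 12 weeks. *Gdf5* regulatory sequence drives the Cre in the embryonic joint interzone, so Tom+ cells are *Gdf5*-lineage cells, and Tom-GFP+ cells are sorted cells without Tom in which the *Pdgfrα* promoter drives a nuclear green fluorescent protein. There were 2 Tom+ and 1 Tom-GFP+ steady-state libraries, and 4 Tom+ and 2 Tom-GFP+ libraries taken 6 days after surgery that opened the knee joint and scratched the cartilage of the trochlear groove. Each sort was a single-cell 5′ library, and n counts libraries and never cells.

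Library totals ran from 2866464 to 15033902 UMIs, and 4788 of 5161 barcodes were kept, at a median depth of 8050.5 to 18567 UMIs per cell. Each kept cell was given to the cell type whose marker genes scored highest in it, here called a gate, and none of the 10 genes is a marker. The gates F1 to F6, the *Thy1*+ sublining fibroblast types, held 2142 cells (472, 688, 285, 457, 98 and 142 from F1 to F6) and the FLS gate 686, and 672 of the 2142 lay near the border to another gate. *Thy1*, which no gate used, was at 186 to 403 counts per 1000000 UMIs (CPM) in the summed F1 to F6 cells of a library and at 2.03 to 24.7 in FLS, and *Cd34* at 353 to 1399 against 17.1 to 148. *tdTom* was at 299 to 667 CPM in the Tom+ and 0.676 to 4.93 in the Tom-GFP+ libraries. Tom+ injured 1 stood apart: 73.4% of its F1 to F6 cells were gated F1 and 15.3% carried cycling markers, against at most 5.86% elsewhere. In Tom-GFP+ injured 2, 277 of 424 barcodes were kept. Libraries shared 14 barcodes over 36 pairs.

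*Eln* (ENSMUSG00000029675, chromosome 5, 134702593 to 134747323, GRCm38), which encodes elastin, was low in Tom+ cells of the steady state and higher in Tom-GFP+ cells. Over the summed F1 to F6 cells it was at 12.1 and 17.2 CPM in the Tom+ steady-state libraries, at 197 CPM in the Tom-GFP+ steady-state library, at 31.7, 48.4, 67.1 and 56.0 CPM in the Tom+ injured libraries 1 to 4, and at 140.1 and 98.7 CPM in the Tom-GFP+ injured libraries. The Tom-GFP+ level was 13.5 times the Tom+ mean of 14.7 ± 3.67 CPM (SD, n = 2) in the steady state. After injury the same levels lay closer together, and all 6 injured libraries fell between the 2 Tom+ and the Tom-GFP+ steady-state values. The log2 fold change with injury was 1.74 (standard error 0.35) in Tom+ cells and -0.73 (0.41) in Tom-GFP+ cells. A higher level in such sums can come from more cells that transcribe the gene or from more RNA per cell, and the sums do not tell these apart.

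**Figure D1:**
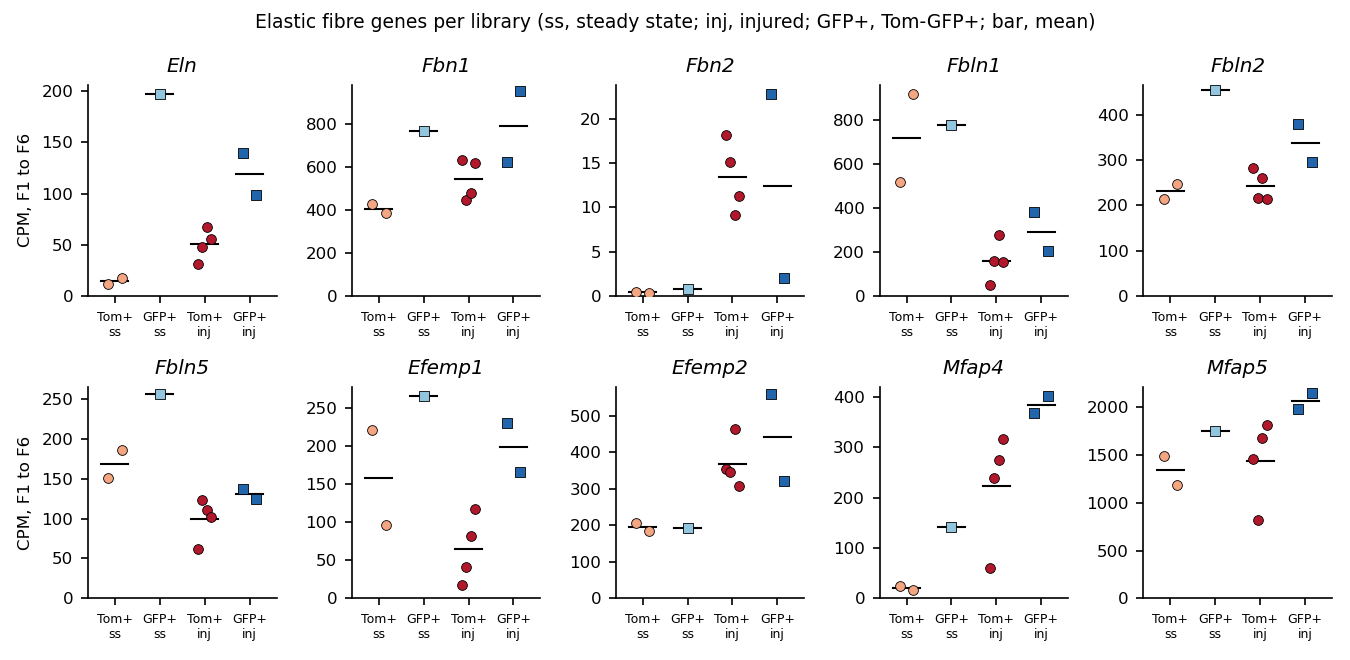
CPM of the 10 elastic fibre genes over summed F1 to F6 cells, one panel per gene with a linear axis from 0; points are libraries (2 Tom+ and 1 Tom-GFP+ steady state, 4 Tom+ and 2 Tom-GFP+ injured) and bars are group means. *Eln* is lowest in the Tom+ steady state (12.1 and 17.2 CPM) and highest in the Tom-GFP+ steady state (197 CPM), while *Fbn2* lies under 1 CPM in all 3 steady-state libraries.

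The share of F1 to F6 cells with an *Eln* UMI was lowest in the Tom+ steady state as well, while the Tom-GFP+ steady state and Tom-GFP+ injured 1 were about level. The share was 6.49% (95% Clopper-Pearson interval 3.68 to 10.5) and 8.44% (5.63 to 12.0) in the Tom+ steady state, 39.1% (33.8 to 44.7) in the Tom-GFP+ steady state, 19.2% to 25.9% in Tom+ injured libraries, and 39.3% and 34.5% in Tom-GFP+ injured libraries. These intervals cover counting error only. Median depths of these cells were 8115 to 19998 UMIs, so each cell was also thinned to 3000 UMIs, which left 3.15%, 3.57%, 20.9%, 8.19% to 11.3%, and 23.3% and 14.0% in the same order. At equal depth every Tom-GFP+ library stayed above every Tom+ library of either state, and Tom-GFP+ injured 1 was the highest. As a background, 0 of 47 immune-gated cells of Tom+ injured 3 held an *Eln* UMI (interval up to 7.55%, median depth 9307 UMIs), and *Eln* was at 0 in all 8 libraries that had such cells.

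Inside single gates the steady-state order of the lineages was the same in each of F1 to F4, with smaller ratios in F2 and F3. In F2, *Eln* was at 7.09 and 18.4 CPM in Tom+ and at 79.7 CPM in Tom-GFP+ cells, a ratio of 6.26. In F3 it was at 35.0 and 33.0 against 174 CPM, a ratio of 5.11 that rests on 10 Tom+ and 77 Tom-GFP+ UMIs. In F4 it was at 10.7 and 17.0 against 154 CPM, a ratio of 11.1. The F1 ratio of 16.0 rests on 3 Tom+ and 6 Tom-GFP+ UMIs. F5 and F6 held 2 to 6 cells in a Tom+ steady-state library and were not compared. Over F1 to F4, without the F5 and F6 cells, *Eln* was at 10.4 and 14.9 against 130.4 CPM, a ratio of 10.3.

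In the 2 libraries with at least 10 F5 cells, both Tom-GFP+, the F5 gate carried the highest *Eln* level among F1 to F6. It was at 846 CPM (221 UMIs in 36 cells, steady state) and 679 CPM (187 UMIs in 40 cells, injured 1). F5 cells were 11.0% and 16.7% of the F1 to F6 cells of these libraries and held 42.5% and 42.8% of their *Eln* UMIs. An *Eln* UMI was found in 69.4% and 62.5% of F5 cells, and in 50.0% and 56.4% after thinning. Outside these libraries F5 cells were few and mostly without *Eln*. The 4 F5 cells of Tom-GFP+ injured 2 held 0 *Eln* UMIs among 23571, and the 3, 2, 4 and 7 F5 cells of Tom+ steady state 1 and Tom+ injured 1, 2 and 4 held 0 among 23107, 11851, 24377 and 57728. The 2 F5 cells of Tom+ steady state 2 held 7 among 14581 UMIs. The high F5 level was thus seen in 2 Tom-GFP+ libraries and not in the other cells gated F5, apart from those of Tom+ steady state 2. The few F5 cells outside the 2 Tom-GFP+ libraries differed in other members too. They held *Mfap4* at 0 to 86.6 CPM per library, against 609 and 1061 CPM. *Fbln5* was at 104 to 2092 CPM in them, against 299 and 189 CPM. Whether they are the same cell type was not tested.

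**Figure D2:**
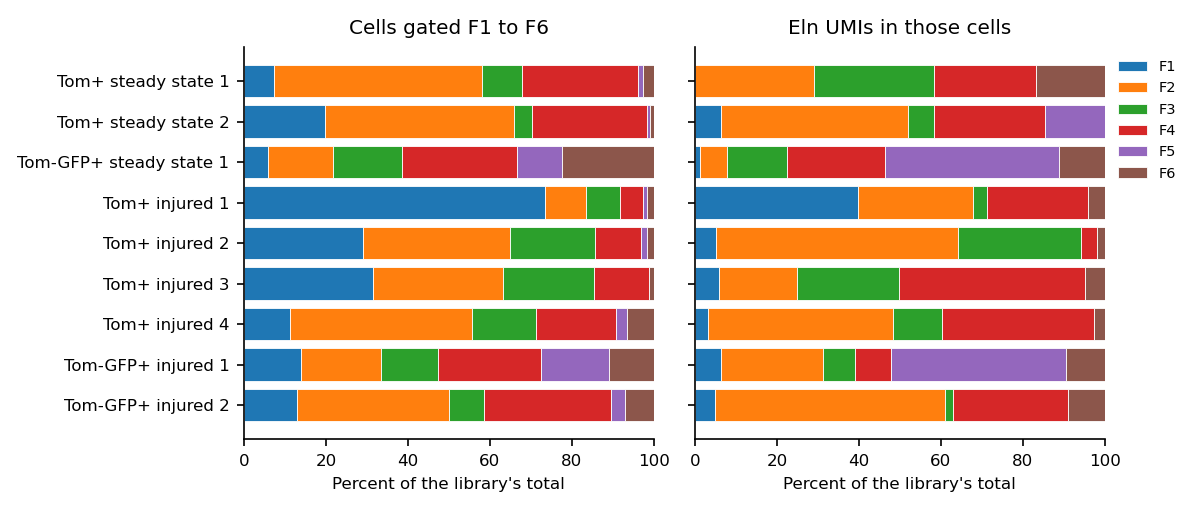
Left, share of each gate among the F1 to F6 cells of a library; right, share of each gate among the *Eln* UMIs of those cells; both in percent, 1 bar per library. F5 makes up 11.0% of cells and 42.5% of *Eln* UMIs in the Tom-GFP+ steady state, and 16.7% and 42.8% in Tom-GFP+ injured 1.

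Whether *Eln* differed between the lineages after injury could be tested, since the injured libraries had no part in choosing it. All 4 Tom+ values lay below both Tom-GFP+ values in the summed F1 to F6 cells, with means of 50.8 ± 14.9 (SD, n = 4) and 119 ± 29.3 CPM (n = 2), a ratio of 2.35. An exact two-sided permutation test gave p = 0.0667, the smallest value that the 15 splits of 6 libraries allow, so this design cannot pass 0.05. The quasi-likelihood test of edgeR gave a log2 fold change of 1.22 (standard error 0.29), an unadjusted p of 0.00227 and a Benjamini-Hochberg adjusted p of 0.549 over 12389 genes. With each of F1 to F4 weighted equally the ratio was 1.15, the groups overlapped and the exact permutation p was 0.6. Single cells weigh on this mean: F4 of Tom+ injured 3 entered it at 220 CPM, with 69 of its 77 *Eln* UMIs in 1 cell. The equal-weight mean was not computed without such cells. The difference of the means was 68.6 CPM over summed F1 to F6 cells, 37.9 CPM over summed F1 to F4 cells and 10.3 CPM with the 4 gates weighted equally.

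Inside single gates of the injured state the lineages did not stand in one order. In F1, *Eln* was at 16.0, 6.68, 10.5 and 13.3 CPM in Tom+ and at 39.0 and 27.1 CPM in Tom-GFP+ libraries. In F2 it was at 133, 91.4, 46.5 and 60.0 against 192 and 151 CPM. The groups did not overlap in these 2 gates, with ratios of 2.85 and 2.07 and log2 fold changes of 1.51 (standard error 0.43, adjusted p = 0.745 by edgeR with Benjamini-Hochberg adjustment) and 1.1 (0.34, adjusted p = 1).

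In F3 and F4 the lineage values overlapped and the Tom+ mean was the higher, in F4 only while the cell with the most *Eln* UMIs of each library was counted. In F3, *Eln* was at 12.8, 78.0, 83.9 and 43.4 CPM in Tom+ and at 58.4 and 23.1 CPM in Tom-GFP+ libraries, a ratio of 0.748 (log2 fold change -0.30, standard error 0.59). In F4 it was at 169.8, 17.9, 220.0 and 108 against 50.9 and 97.0 CPM, a ratio of 0.573 (log2 fold change -0.81, standard error 0.56). The F3 direction depended on the processing: the log2 fold change was 2.15 with gates set on thinned cells, 0.29 with a replicate block, 0.03 without cells near the border to another gate and 0.09 without Tom-GFP+ injured 2, and none of these passed the test. Exact permutation p-values were 0.0667 in F1 and F2, 0.667 in F3 and 0.467 in F4.

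Single cells carried much of the *Eln* signal in some gates. In F4 of Tom+ injured 3, 69 of 77 UMIs came from 1 cell, in F4 of Tom+ injured 1 it was 24 of 36, and in F2 of Tom-GFP+ injured 2 it was 44 of 82. Without the cell with the most *Eln* UMIs in each library, the summed F1 to F6 levels were 26.6, 42.5, 40.0 and 46.0 CPM in Tom+ and 131 and 69.7 CPM in Tom-GFP+ injured libraries, which still did not overlap. In F2 the groups then overlapped, at 111, 72.8, 35.2 and 48.1 against 148 and 71.9 CPM. In F1 they did not, at 13, 4.25, 7.51 and 8.23 against 20.1 and 18.2 CPM. In F3 they overlapped, at 7.84, 61.8, 34.8 and 32.3 against 36.4 and 8.07 CPM. In F4 they overlapped too, at 61.5, 15.6, 24.2 and 56.5 against 44.9 and 71.3 CPM, and there the Tom+ mean was no longer the higher.

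**Figure D3:**
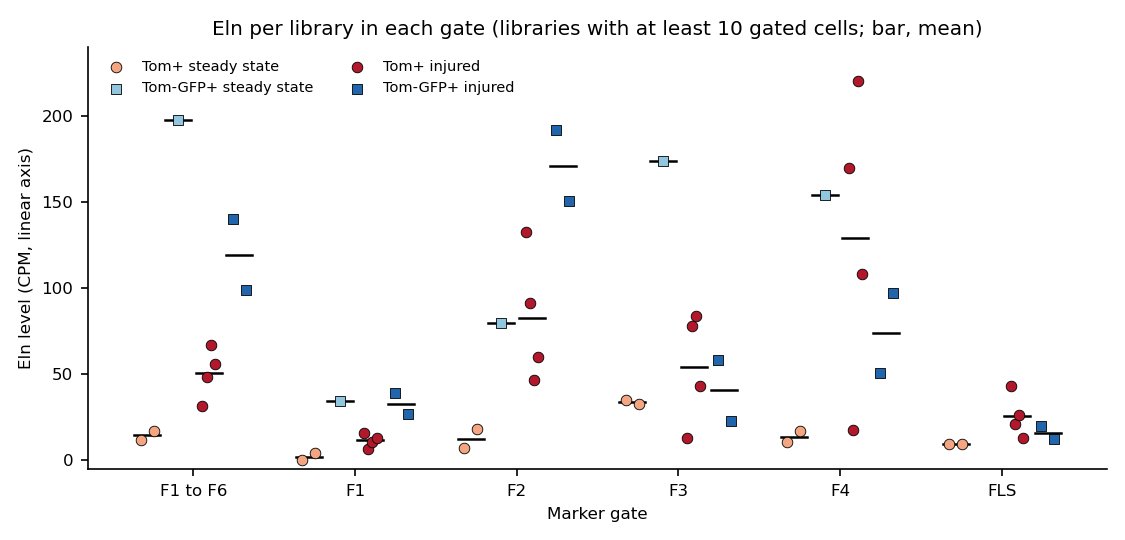
*Eln* CPM (linear axis) in the summed F1 to F6 cells and in the gates F1, F2, F3, F4 and FLS; points are libraries with at least 10 gated cells, bars are group means. The injured lineages are apart in F1 to F6, F1 and F2 and overlap in F3 and F4.

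None of the 10 genes passed a false discovery rate of 0.05 between the injured lineages in the summed cells, where 0.00807% of all genes did, and DESeq2 likewise called 0. With no filter on low counts *Eln* passed in the summed cells (1.19, adjusted p = 0.000414) and in F2 (1.08, adjusted p = 0.00612), both by edgeR with Benjamini-Hochberg adjustment. Under that setting far more of all genes passed in the summed cells than in the main fit, as counted in the last section. In the main fit of the summed cells *Eln* and *Efemp1* had an unadjusted p under 0.05, as did 601 of 12389 genes. Nor did any of the tested members pass within F1 (0.0223% of genes), F2 (0.0117%), F3 (0.013%) or F4 (0.0126%). The counts of members at an unadjusted p under 0.05 were 3, 1, 0 and 1 in these gates. Over all genes they were 460 of 8980, 337 of 8546, 319 of 7706 and 381 of 7964. DESeq2 called 0 members in each gate. *Efemp1*, which encodes fibulin-3, was at 17.1, 40.5, 81.4 and 118 CPM in Tom+ and 230.4 and 166 CPM in Tom-GFP+ injured libraries. Its groups did not overlap, and its fold change on the log2 scale was 1.60 (standard error 0.62, adjusted p = 0.959 by edgeR with Benjamini-Hochberg adjustment). The median log2 fold change was 0.503 over the 10 genes and -0.03 over all genes tested.

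In the steady state the other members were described beside *Eln*. Among the microfibril genes, *Fbn1* (ENSMUSG00000027204, chromosome 2, 125300594 to 125507993), which encodes fibrillin-1, was at 427 and 384 CPM in Tom+ and at 769 CPM in Tom-GFP+ cells. *Mfap4* (chromosome 11, 61485431 to 61488900), a microfibril-associated glycoprotein gene, was at 25.1 and 17.2 against 141 CPM, a ratio of 6.67 and the next largest after *Eln*. *Mfap5* (chromosome 6, 122505845 to 122529290), which encodes another microfibril-associated glycoprotein, was at 1489 and 1192 against 1752 CPM. *Fbn2* (ENSMUSG00000024598, chromosome 18), which encodes fibrillin-2, the fibrillin best known from development, had 2 UMIs over both Tom+ libraries together and 2 in Tom-GFP+ cells.

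The fibulin genes were at ratios of at most 1.97 in the steady state, with *Fbln2* the highest of them. *Fbln2* (chromosome 6, 91212455 to 91272540) was at 215 and 247 CPM in Tom+ and at 454 CPM in Tom-GFP+ cells. *Fbln5* (chromosome 12, 101746565 to 101819055), whose product binds elastin during fibre assembly, was at 151 and 186 against 255 CPM. *Efemp1* (chromosome 11, 28853204 to 28926743) was at 220.5 and 95.9 against 265 CPM. *Fbln1* (chromosome 15, 85205949 to 85286535) was at 519.8 and 920.3 CPM in Tom+ cells, on either side of the 777 CPM of the Tom-GFP+ library. *Efemp2* (chromosome 19, 5473954 to 5482517), which encodes fibulin-4, was at 206 and 185 CPM, on either side of 192 CPM. The Tom-GFP+ level was above both Tom+ levels for 8 of the 10 genes in the summed cells, and for 4, 7, 6 and 6 in F1, F2, F3 and F4. It was below both for 0, 2, 2, 1 and 1 in the same order. The 8 include *Eln*, which was chosen for this order, and *Fbn2*, at 2 UMIs in each lineage. The share of all genes in this order is not given here, so the counts show nothing particular to the members.

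The gates differed in which elastic fibre genes they carried. Each of F1 to F6 was compared with the mean of the other 5, and FLS with the mean of F1 to F6. This was 1 fit of 9177 genes over library and gate pairs with at least 10 cells, with the library as a block. F5 entered from 2 Tom-GFP+ libraries and F6 from 3 libraries. The means of other gates therefore hold fitted F5 or F6 levels that most libraries did not measure, so the comparisons are only partly within libraries. For *Eln* the gate differences are a description, with no test, since all 3 steady-state libraries chose it. Its log2 fold change was -2.95 (standard error 0.37) in F1, 3.05 (0.38) in F5 and -1.90 (0.32) in FLS, and -0.42 to 0.26 in F2, F3, F4 and F6. The F5 value comes from 2 Tom-GFP+ libraries. Over the 9 libraries that all had F1 to F4, the median *Eln* level was 97.0 CPM in F4, 79.7 in F2, 43.4 in F3 and 13.3 in F1. It was 16.6 CPM in FLS (8 libraries). These ranges overlapped, F1 for example at 0 to 39.0 and FLS at 9.54 to 43.1 CPM. They mix lineages and injury states and do not compare gates within a library, so the order of medians is only a description. Other gates were present in fewer libraries, which differ in lineage and injury, so they were not ranked: F5 was at 763 CPM (median of 2 libraries), F6 at 110.5 (3 libraries), the mural gate of vascular smooth muscle at 68.3 (5 libraries), the injury-induced gate at 22.2, tenocyte-lineage at 14.2, osteoblast-lineage at 6.56, chondrocyte-lineage at 3.36 and immune cells at 0. In Tom+ steady state 2 alone the mural gate was at 259 CPM against 17.0 in F4 and 18.4 in F2.

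F1 had low levels of *Mfap4* and of several fibulin genes. Of the 9 members tested, 4 were lower in F1 and 0 higher, where 28.5% of all genes differed: *Mfap4* (-4.23 on the log2 scale, standard error 0.42), *Fbln5* (-1.84, 0.21), *Fbln1* (-1.69, 0.27) and *Efemp1* (-1.5, 0.34). *Mfap4* was at 0, 2.88, 0, 7.71, 1.67, 40.9, 53.1, 33.4 and 46.5 CPM in F1 of the 9 libraries (Tom+ steady state 1 and 2, Tom-GFP+ steady state, Tom+ injured 1 to 4, Tom-GFP+ injured 1 and 2). In F2 it was at 34.5, 30.9, 206, 632, 545, 426, 407, 649 and 729.9 CPM in the same order, above F1 in every library. The *Efemp1* call was lost without Tom-GFP+ injured 1 (-0.99, adjusted p = 0.36 by edgeR with Benjamini-Hochberg adjustment).

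The promoters of the F1-low members for which RefSeq gave a start are shown because these genes were low together. Each line holds the 250 bases before the first RefSeq start listed for the gene on GRCm38.p6 (*Fbln1* and *Fbln5* have 2 starts each, *Efemp1* has 1), read 5′ to 3′ on the gene's strand, with matches to 4 short motifs on either strand in capitals.
Fbln1: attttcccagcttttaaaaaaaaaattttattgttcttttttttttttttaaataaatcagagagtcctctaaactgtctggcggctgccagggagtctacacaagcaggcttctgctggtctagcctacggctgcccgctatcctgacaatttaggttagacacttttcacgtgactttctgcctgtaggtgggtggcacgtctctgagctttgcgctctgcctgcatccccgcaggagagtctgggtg
Fbln5: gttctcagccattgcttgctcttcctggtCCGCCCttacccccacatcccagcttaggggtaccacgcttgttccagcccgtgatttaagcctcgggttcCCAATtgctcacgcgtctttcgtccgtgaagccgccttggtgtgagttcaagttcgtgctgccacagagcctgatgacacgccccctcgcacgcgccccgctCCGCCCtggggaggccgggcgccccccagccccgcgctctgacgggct
Efemp1: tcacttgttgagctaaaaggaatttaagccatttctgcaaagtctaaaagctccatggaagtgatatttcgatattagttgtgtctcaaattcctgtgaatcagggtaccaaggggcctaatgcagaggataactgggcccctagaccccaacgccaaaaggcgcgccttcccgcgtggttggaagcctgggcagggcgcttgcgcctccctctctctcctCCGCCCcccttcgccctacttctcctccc
The windows lie at chr15:85205699-85205948 on the plus strand, chr12:101819120-101819369 on the minus strand and chr11:28852955-28853204 on the plus strand. The *Fbln5* window held 2 GC boxes (GGGCGG, in 32.7% of 32851 such windows in the genome) and 1 CCAAT box (CCAAT, 33.8%), the *Efemp1* window held 1 GC box, and the *Fbln1* window held neither. The second starts differed: the *Fbln1* window (chr15:85205758-85206007) held 1 GC box at a GC content of 62.4%, and the *Fbln5* window (chr12:101818485-101818734) held neither motif at 49.6%. A TATA box (TATAAA, 12.4% of windows) and an AP-1 site (TGACTCA, 4.46%) were in none of the 3. The 3 windows had a GC content of 46.4%, 65.2% and 53.6%. A match describes these letters and is not a measured binding site.

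F4, the gate of *Dpp4* and *Pi16* fibroblasts, had high levels of *Fbn1*, *Mfap5* and *Efemp1*. In F4, 4 of the 9 members tested were higher and 1 lower, where 12.9% of all genes differed. *Fbn1* was higher by 1.56 (log2 fold change, standard error 0.13, adjusted p = 1.73e-12 by edgeR with Benjamini-Hochberg adjustment), at 822, 725, 1205, 1679, 1223, 1191, 1396, 1119 and 1809 CPM over the 9 libraries in the order above, against 183 to 521.5 CPM in F2. *Mfap5* was higher by 1.42 (0.20), *Efemp1* by 2.00 (0.25) and *Fbln5* by 0.80 (0.17), and *Mfap4* was lower by 1.27 (log2 fold change -1.27, 0.33, adjusted p = 0.00505). The *Mfap4* call was lost without the Tom-GFP+ steady-state library (-1.09, adjusted p = 0.0557).

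In F2, *Mfap4* was higher by 1.47 (standard error 0.28) and *Fbn1* lower (-0.64, 0.14), where 8.25% of all genes differed, and both calls were lost with gates set on thinned cells (0.95, adjusted p = 0.121, and -0.44, adjusted p = 0.052, by edgeR with Benjamini-Hochberg adjustment). None of the 9 passed in F3, where 5.03% of genes did, and DESeq2 called 0 of them. At an unadjusted p under 0.05 there were 1 member (*Mfap5*) and 1613 of 9177 genes. In F5, 2 of 9 were higher where 3.99% of genes differed: *Mfap4* (2.85, 0.47), at 609 and 1061 CPM, and *Fbln1* (1.80, 0.39), at 1593 and 1439 CPM. These F5 values come from 2 Tom-GFP+ libraries only. *Fbln1* was lost without Tom-GFP+ injured 1 (1.24, adjusted p = 0.3) and *Mfap4* without the Tom-GFP+ steady state (2.16, adjusted p = 0.0556), both by edgeR. In F6, 1 of 9 passed where 1.38% of genes did. This was *Fbn2* (3.65, standard error 0.73), on 1, 21 and 10 UMIs in 3 libraries, and the call was lost without Tom+ injured 4 (2.40, adjusted p = 0.401 by edgeR), with at least 20 cells (2.46) and with gates set on thinned cells (2.54).

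Most of these genes were lower in FLS than in the sublining gates. Of the 9 tested, 6 were lower and 1 higher than the mean of F1 to F6, where 37.3% of all genes differed. *Mfap4* was at 0 in 4 of the 8 libraries with at least 10 FLS cells and at most at 8.62 CPM, *Fbln1* at 6.36 to 38.3 CPM and *Fbn1* at 31.4 to 129.5 CPM, with log2 fold changes of -7.25 (standard error 0.57), -3.41 (0.31) and -2.94 (0.17). *Mfap5* (-3.14, 0.27), *Fbln2* (-1.86, 0.15) and *Efemp1* (-1.65, 0.33) were lower as well. The *Efemp1* call was lost without Tom-GFP+ injured 1 (-1.18, adjusted p = 0.178 by edgeR with Benjamini-Hochberg adjustment). *Fbln5* was the exception, at 131 to 423 CPM in FLS and higher by 0.59 (0.17, adjusted p = 0.00541 by edgeR), a call lost without Tom+ steady state 1 (0.41, adjusted p = 0.0671) or Tom+ injured 4 (0.43, adjusted p = 0.0729) or with at least 20 cells (0.41, adjusted p = 0.0678). *Fbln5* in FLS was not above every sublining gate. Its median over libraries was 185 CPM in FLS, against 46.7 in F1, 142 in F2 and 94.5 in F3. It was 201 CPM in F4, 244 in F5 (2 libraries) and 240 in F6 (3 libraries). *Efemp2* differed by 0.01 (0.12) and *Fbn2* by 0.93 (0.64), and neither passed the test.

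**Figure D4:**
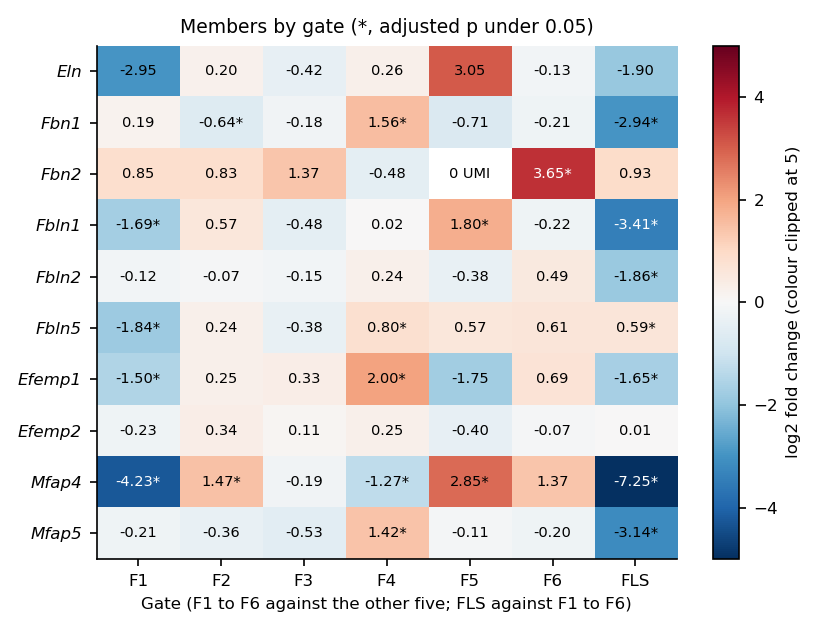
Log2 fold change of each member in each of F1 to F6 against the other 5 gates, and in FLS against F1 to F6, from the edgeR fit with library as a block; an asterisk marks an adjusted p under 0.05, *Eln* was not tested, and *Fbn2* in F5 is left blank at 0 UMIs. F1 and FLS hold mostly values under 0, F4 is highest for *Fbn1*, *Mfap5* and *Efemp1*, and F5 for *Eln* and *Mfap4*.

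After injury *Mfap4* and *Fbn2* rose and *Fbln1* fell in Tom+ cells. In the summed F1 to F6 cells 2 of the 9 members tested rose and 1 fell, where 6.7% of all genes changed. DESeq2 called 4 members (*Mfap4*, *Fbln1*, *Fbn2* and *Efemp2*) and 987 of 12389 genes. *Mfap4* was at 25.1 and 17.2 CPM in the Tom+ steady state and at 59.9, 239, 275 and 317 CPM after injury, every injured library above both controls (log2 fold change 3.37, standard error 0.64, adjusted p = 0.0205 by edgeR with Benjamini-Hochberg adjustment). *Fbln1* was at 519.8 and 920.3 CPM and fell to 52.1, 159, 279 and 154 CPM (-2.19, 0.52, adjusted p = 0.0419). *Fbn2* went from 2 UMIs in the 2 steady-state libraries to 187 in the 4 injured libraries, at 18.2, 15.1, 9.13 and 11.3 CPM, a ratio of summed shares of 34.0 (95% counting interval 9.27 to 282) with an adjusted p of 0.0324 by edgeR.

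These 3 calls rest on few steady-state libraries. Without either Tom+ steady-state library, or without Tom+ injured 2, 0 of the 9 members passed, with log2 fold changes of 3.66, 3.11 and 3.35 for *Mfap4*, -2.54, -1.74 and -2.18 for *Fbln1* and 5.05, 4.58 and 4.80 for *Fbn2*. The *Fbln1* call was also lost without Tom+ injured 4 or either Tom-GFP+ injured library (-2.19 each), and the *Fbn2* call without Tom+ injured 3 (4.98). Other settings moved them too. With the gene list format as a block, *Mfap4* was at a smaller log2 fold change of 1.48. That block sets Tom+ injured 1 alone against the Tom+ controls, here and wherever it is used for injury in Tom+ cells. With a replicate block *Mfap4* was at 2.55 (adjusted p = 0.0578 by edgeR). The *Fbln1* call was lost without cells near the border to another gate (-1.93, adjusted p = 0.0907), without the highest doublet scores (-2.15, adjusted p = 0.0517) and with cells that held a *Thy1* or *Cd34* UMI (-2.03, adjusted p = 0.0509), and the *Fbn2* call without F5 and F6 (4.57, adjusted p = 0.057), all by edgeR with Benjamini-Hochberg adjustment. The median log2 fold change was 0.236 over the 10 genes and 0.007 over all genes tested. The member median includes *Eln*, which was chosen on the steady-state libraries, so it is given as a description only. Steady-state libraries carried the older gene list format, as did Tom+ injured 1, while the other injured libraries carried the newer one. The part of the format in these changes was not tested beyond the block. In Tom+ injured 1, the library that stood apart by its F1 and cycling cells, *Mfap4* was at 59.9, *Fbn2* at 18.2 and *Fbln1* at 52.1 CPM.

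Summed marker levels of other cell types in the F1 to F6 cells moved with injury too. The 6 FLS markers summed to 1101 and 1149 CPM in the Tom+ steady state and to 6545, 5023, 4519 and 1951 CPM in Tom+ injured libraries, against 660.0 CPM in the Tom-GFP+ steady state and 1029 and 708 CPM after injury. The 6 mural markers summed to 17.6 and 32.0 against 286, 107, 73.9 and 57.0 CPM in Tom+, and to 6.83 against 143 and 25.7 CPM in Tom-GFP+ cells. *Myh11*, a marker in this mural list, was at 0 in 6 of the 9 libraries, so the sums there came from the other mural markers. Mural-gated cells themselves held *Eln* at 259 CPM in Tom+ steady state 2 and at 355, 66.3, 44.6 and 68.3 CPM in Tom+ injured libraries, with 118 of the 211 UMIs of Tom+ injured 1 in 1 cell. FLS and mural gates held *Mfap4* at most at 8.62 and 7.59 CPM. The injury-induced gate (6 libraries) held *Mfap4* at 86.8 to 359, *Fbn2* at 21.9 to 56.6 and *Fbln1* at 35.0 to 158 CPM. In the tenocyte-lineage gate (8 libraries) they were at 129 to 803, 3.63 to 68.4 and 52.1 to 1429 CPM. Marker sums of these 2 gates in the F1 to F6 cells are not given here. The part of any of these cell types in the injury changes of the summed cells was not tested.

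Some injury changes of the summed cells were also found inside single gates. *Mfap4* passed in F2 and F4, and *Fbln1* in F1, F2 and F4. *Fbn2* passed in none of F1 to F4 or FLS. In F1, 1 member rose and 1 fell of 9 tested, where 4.78% of all genes changed. *Fbln1* was at 327 and 522 CPM before and at 27.0, 32.55, 110.2 and 55.8 CPM after injury (log2 fold change -2.96, standard error 0.47, adjusted p = 0.0074 by edgeR with Benjamini-Hochberg adjustment). *Efemp2* was at 117 and 115 CPM before and at 337, 296, 436.5 and 311 CPM after (1.60, 0.28, adjusted p = 0.0124). Without Tom+ steady state 2 neither passed (-2.61 and 1.54), and without Tom+ steady state 1 *Efemp2* did not (1.54), nor with at least 20 cells (1.51, adjusted p = 0.0612 by edgeR) or the gene list format as a block (1.52, adjusted p = 0.0503). *Fbn2* in F1 had 0 UMIs before and 81 after injury, which is at least 3.80-fold higher against a floor of 3 UMIs over the group, and did not pass the test. The *Efemp2* order was not limited to F1. Every Tom+ injured library lay above both controls in the summed cells (308 to 463 against 185 and 206 CPM), F2, F4 and FLS as well. In F3 the values overlapped. By edgeR *Efemp2* passed the Tom+ injury test in F1 only.

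In F2, 2 members rose and 1 fell of 9, where 7.8% of genes changed. *Mfap4* was at 34.5 and 30.9 CPM before and at 632, 545, 426 and 407 CPM after injury (3.85, standard error 0.28, adjusted p = 2.84e-05 by edgeR with Benjamini-Hochberg adjustment). *Fbn1* was at 183 and 187 CPM and then at 521.5, 363, 266 and 371 CPM (0.95, 0.25, adjusted p = 0.0399). *Fbln1* was at 675 and 1133 CPM and then at 194, 283, 420.3 and 197 CPM (-1.78, 0.32, adjusted p = 0.00529). The *Mfap4* call stood with any 1 library left out. The *Fbn1* call was lost without Tom+ steady state 1 or 2 or Tom+ injured 2 or 4 (0.96 to 0.99), without cells near the border to another gate (0.64, adjusted p = 0.151 by edgeR) and with gates set on thinned cells (1.03, adjusted p = 0.0975), and the *Fbln1* call without Tom+ steady state 2 (-1.35). *Eln* in F2 was at 7.09 and 18.4 CPM before and 133, 91.4, 46.5 and 60.0 CPM after injury, a log2 fold change of 2.50 (0.44) that is given as a description.

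In F4, 1 rose and 1 fell of 8 tested, where 4.8% of genes changed. *Mfap4* was at 0 and 9.15 CPM before and at 23.6, 95.4, 269 and 228 CPM after injury (4.86, standard error 0.89, adjusted p = 0.00454 by edgeR with Benjamini-Hochberg adjustment). *Fbln1* was at 392 and 955 CPM before and at 189, 277, 329 and 167 CPM after (-1.54, 0.38, adjusted p = 0.0305). Both calls were lost with the gene list format as a block (1.99 and -1.98) and with a replicate block (3.52 and -1.54), and the *Fbln1* call without cells near the border to another gate (-1.25). The *Mfap4* call was also lost without Tom+ steady state 1 (4.06), the fitted value without Tom+ steady state 2 was 9.3 against a lone control at 0 UMIs, and the *Fbln1* call without Tom+ steady state 2 (-0.76) or Tom+ injured 2 (-1.60) or 4 (-1.41). *Eln* in F4 was at 10.7 and 17.0 CPM before and at 169.8, 17.9, 220.0 and 108 CPM after injury. In F3, 0 of 9 members passed, where 1.22% of genes did, and DESeq2 called 0 members. At an unadjusted p under 0.05 there were 4 members and 1029 of 7706 genes. The *Fbln1* values in F3 were 240.1 and 945.5 CPM before and 74.3, 148, 306 and 162 CPM after.

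**Figure D5:**
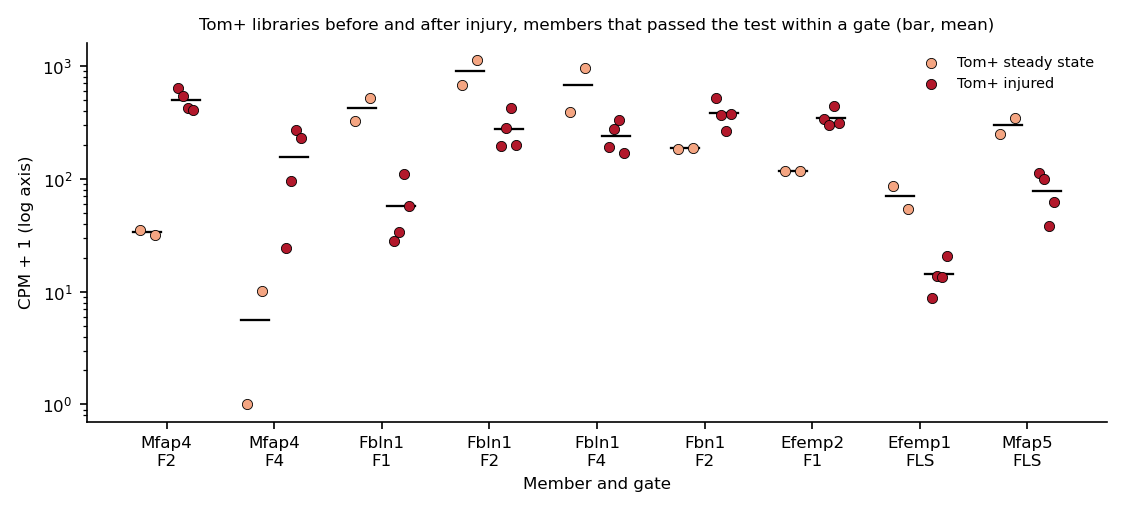
Levels (CPM + 1, log axis) of members that passed the test within a gate, in 2 Tom+ steady-state and 4 Tom+ injured libraries; bars are means. *Mfap4* in F2 goes from 30.9 and 34.5 CPM to 407 to 632 CPM, and *Fbln1* in F1 from 327 and 522 CPM to 27.0 to 110.2 CPM.

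The marker sums of other cell types were read within F2 and F4 as well. Mural markers summed to 24.3 and 18.4 CPM in F2 before and to 100.4, 45.2, 34.9 and 21.65 CPM after injury. In F4 they summed to 5.34 and 6.53 against 14.15, 11.9, 28.6 and 25.7 CPM. *Myh11*, a marker in this list, was at 0 in all 4 Tom+ injured libraries of both gates, so the sums there came from the other mural markers. FLS markers summed to 1688 and 633.5 against 2789, 4616, 1158 and 829 CPM in F2. FLS marker sums in F4 are not given here, and neither sum is given for F1, where *Fbln1* and *Efemp2* passed. Of the 472 F1 cells, 188 lay near the border to another gate. The part of these cell types in the changes within F1, F2 and F4 was not tested.

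In FLS, 0 members rose and 2 fell of 8 tested, where 4.79% of genes changed. *Efemp1* was at 85.85 and 53.15 CPM before and at 7.79, 12.9, 12.5 and 19.8 CPM after injury (-2.31, standard error 0.37, adjusted p = 0.0102 by edgeR with Benjamini-Hochberg adjustment). *Mfap5* was at 248 and 345.5 CPM before and at 111, 97.8, 37.0 and 61.45 CPM after (-1.92, 0.40, adjusted p = 0.0249). The *Efemp1* call was lost without Tom+ steady state 1 (-1.90), and the *Mfap5* call without Tom+ steady state 1 (-2.09) or 2 (-1.62) or Tom+ injured 4 (-1.85), without cells near the border to another gate (-2.08), with the gene list format as a block (-1.42) and with a replicate block (-1.5). Between the injured lineages 0 members passed in FLS, where 0.0216% of genes did. At an unadjusted p under 0.05 there were 3 members (*Mfap5*, *Efemp1* and *Efemp2*) and 311 of 9246 genes. DESeq2 called 1 member (*Mfap5*) and 4 genes. *Mfap5* in injured FLS was at 450.5 and 187 CPM in Tom-GFP+ libraries, above all 4 Tom+ values (log2 fold change 2.03, standard error 0.39, adjusted p = 0.705 by edgeR). *Eln* in injured FLS was at 43.1, 21.0, 26.4 and 13.2 CPM in Tom+ and at 20.1 and 12.3 CPM in Tom-GFP+ libraries, which overlapped.

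In Tom-GFP+ cells no member passed the injury test (0 of 9, where 0.113% of all genes did), against 3 at an unadjusted p under 0.05 (*Fbln5*, *Fbn2* and *Efemp2*) and 0 by DESeq2. That test rests on 1 steady-state library, whose spread was taken from the other groups. Between these 3 libraries the format of the gene list and the injury cannot be told apart. *Fbn2* was at 0.759 CPM before and at 22.75 and 2.03 CPM after injury, and *Mfap4* at 141 CPM before and at 369 and 401 CPM after. *Fbln1* was at 777 CPM before and at 383 and 205 CPM after. The injury effect differed between the lineages for 0 of 9 members, where 0.0% of all 12389 genes did, against 0 members and 215 genes at an unadjusted p under 0.05 and 0 members and 1 gene by DESeq2. For *Mfap4* the difference of the effects was -1.93 (standard error 0.91) and for *Fbln1* 0.79 (0.95), so differences of this size were not resolved.

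Of 33 further genes of the elastic fibre pathway (microfibril partners, cross-linking oxidases, other fibulins, elastin-degrading proteases and cell-surface receptors), 26 were tested in the summed cells. After injury 3 rose and 1 fell in Tom+ cells, 4 of 26 where 6.7% of all genes changed. Without either Tom+ steady-state library 0 passed, 1 passed without Tom+ injured 2, 2 without Tom+ injured 3 or without either Tom-GFP+ injured library, and 7 without Tom+ injured 1. Counts over all genes moved under the same omissions, as given in the last section, so these counts show nothing particular to the partners. *Lox*, the lysyl oxidase that cross-links elastin and collagen, was at 77.8 and 89.8 CPM before and at 567, 322, 295 and 281 CPM after injury (log2 fold change 2.09, standard error 0.37, adjusted p = 0.0166 by edgeR with Benjamini-Hochberg adjustment). *Mmp14*, a membrane-bound matrix metalloproteinase, rose by 1.32 (0.25) and *Emilin1*, an elastin-associated glycoprotein gene, by 1.01 (0.25). *Ltbp4*, which encodes a latent TGF-β binding protein that takes part in elastic fibre assembly, was at 372 and 335 CPM before and fell to 74.2, 109, 146 and 193 CPM (-1.47, 0.36, adjusted p = 0.0468 by edgeR). None of the 26 passed between the injured lineages, in the Tom-GFP+ injury test or in the test of the difference of injury effects.

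Within gates, of 24 or 25 partners tested, 1 rose in F1 (where 4.78% of all genes changed), 3 rose and 1 fell in F2 (7.8%), 0 passed in F3 (1.22%), 4 rose in F4 (4.8%), and 3 rose and 2 fell in FLS (4.79%). With 1 library left out 0 to 3 passed in F1, 2 to 5 in F2, 0 to 3 in F3, 1 to 5 in F4 and 2 to 5 in FLS. The lowest counts of F2, F4 and FLS came without a Tom+ steady-state library, that of F1 without Tom+ steady state 2, and the 3 in F3 without Tom+ injured 1. Counts over all genes with 1 library left out are in the last section for FLS and are not given within F1 to F4. The ranges above therefore show nothing particular to the partners. *Lox* rose by 2.00 (standard error 0.26) in F2, by 3.48 (0.50) in F4 and by 2.82 (0.40) in FLS. *Mfap2*, which encodes a further microfibril-associated glycoprotein, rose by 1.98 (0.28) in F2 and by 2.98 (0.56) in F4, the gates in which *Mfap4* rose. In FLS *Ltbp4* (-2.46, 0.28) and *Ltbp2* (-4.48, 0.77) fell, both on the log2 scale.

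Across the 78 pairs of library and gate with at least 10 cells, from 9 libraries and 12 gates, the genes whose log2 CPM was most like that of *Eln* among 9577 compared were *Gstm2* (Pearson r = 0.67, Spearman rho = 0.73), *Ms4a4d* (0.66, 0.66), *Ccl11* (0.65, 0.69), *Gbp3* (0.64, 0.65) and *Abcc9* (0.64, 0.63). *Ccl11* is a marker of the F6 gate. Among the members, *Fbn1* was most like *Eln* (r = 0.48) and *Fbn2* least (r = -0.04). These points share libraries and depth, so the correlations are given as a description.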

How the data were processed

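Single-cell 5′ libraries were made from cells sorted by lineage. The deposited values are raw UMI counts per gene and barcode, without normalization, which the authors made with Cell Ranger (3.0.2 in the matrix headers that name a version) on GRCm38.p6, per the submitters' processing notes, for barcodes already called as cells. The study states separate mice within a group and Tom-GFP+ mice matched to Tom+ mice, but the labels do not say which, so samples were not paired.

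Cells were kept from 500 genes and 1000 UMIs upward if no more than 10% of UMIs were mitochondrial, and doublets were not removed. For each marker list the scaled log levels were averaged and standardised over cells, and a cell went to the list with the highest score, given at least 2 markers with a UMI (3 for FLS). Cells with at least 2 immune or 2 endothelial markers were set apart. UMIs were summed per library and gate where at least 10 cells were gated, and CPM divides by all UMIs of those cells. Genes were tested with edgeR 4.0.16 (filterByExpr, TMM, quasi-likelihood test) in R 4.3.3 with Benjamini-Hochberg adjustment over all genes tested and a threshold of 0.05, with 1 fit of the 4 groups per gate or sum. F5 and F6 had too few Tom+ cells for a fit of their own, so the equal-weight mean covers F1 to F4. The group fit and the gate fit were tested on simulated counts. DESeq2 1.42.0 was an alternative, with scipy 1.17.1 for exact tests.

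The 10 genes, the gates, the partner list and the alternatives were chosen with earlier results of these data known. All 10 genes were named, with partner genes past the threshold (at most 5 in each direction of the lineage and injury tests) and the 5 genes with the highest correlation to *Eln* (log2 CPM, prior count 2). Of 54532 Ensembl genes listed, 54409 were in GENCODE vM21, 53842 with the same symbol, and gene positions come from that release. Promoter windows come from RefSeq (GRCm38.p6), which held a start for 6 of the 10 genes: *Fbn1*, *Fbln1*, *Fbln2*, *Fbln5*, *Efemp1* and *Efemp2*, and not for *Eln*, *Fbn2*, *Mfap4* and *Mfap5*.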

Additional observations from a re-analysis of the deposited data

How the results depend on the processing

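Of 33 fold changes of members that passed the test, all 33 kept their direction under the 10 to 15 alternatives run for each and with each of 9 libraries left out, and 13 passed under every one. These counts include settings that could not change a fit. Leaving out a gate does not touch the injury fit inside another gate, and *Fbn1* in F2 stayed at 0.95 there. A library with too few cells for a fit does not touch it either. *Efemp1* in FLS thus stayed at -2.31 without the Tom-GFP+ steady state. For *Eln* between the injured lineages, the log2 fold change of 1.22 in the summed cells was 0.95 to 1.44 with 1 library left out and 1.19 (adjusted p = 0.000414, edgeR) with no filter on low counts. In F1 it was 1.21 to 1.83, in F2 0.91 to 1.32 and 1.08 with no filter (adjusted p = 0.00612), in F4 -1.3 to -0.36 and in FLS -1.01 to -0.39. In F3, where it was -0.30, it was 0.03 without cells near the border of gates, 2.15 with gates set on thinned cells, 0.29 with a replicate block and -1.36 to 0.09 with 1 library left out. The CPM difference of 68.6 was 10.3 with equal weights, 28.0 over all stromal cells and 37.9 over F1 to F4, the last 2 chosen after seeing the data, as were the settings that leave out the top cell, F1, F5 or F6, or use *Thy1* or *Cd34* UMIs. The cause of these changes was not tested.

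Deviations of same-numbered libraries from their group means correlated at -0.0774 to 0.229, and those of differently numbered ones at -0.3248 to 0.3248. In a group of 2 libraries these deviations mirror each other. The values therefore cannot show whether the samples were paired. Counts of members called after injury in Tom+ cells (3, 2, 3, 0, 2 and 2 in the sum, F1, F2, F3, F4 and FLS) became 6, 5, 5, 3, 4 and 6 with no filter. With the gene list format as a block they were 5 in the sum, 1 in F1, 1 in F3, 0 in F4 and 1 in FLS. With the replicate block they were 5 in F2, 1 in F3, 0 in F4 and 1 in FLS. With at least 20 cells they were 1 in F1 and 1 in F3, without border cells 1 in F3, and on thinned gates 4 in FLS. With 1 library left out they were 0 to 3, 0 to 3, 1 to 3, 0 to 1, 1 to 3 and 0 to 2.

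Counts over all genes moved more. For injury in Tom+ cells they are given here for the sum and FLS, and not within F1 to F4. The member counts above therefore show nothing particular to the members. The 1 gene between the injured lineages became 22 by DESeq2, 351 with no filter, 0 with the replicate block, 2 with *Thy1* or *Cd34* UMIs and 0 to 4 with 1 library left out. The 830 of Tom+ injury became 2237 with no filter and 29 to 1351 with 1 left out (29 without Tom+ steady state 1, 84 without Tom+ steady state 2, 1351 without Tom+ injured 1, 296 without Tom+ injured 2, 320 without Tom+ injured 3). The 14 of Tom-GFP+ injury became 227 (DESeq2), 1126 (no filter), 5 (no border cells), 24 (thinned gates), 252 (format block), 24 (*Thy1* or *Cd34* UMIs), 23 (no F5 and F6), 221 (no F1) and 0 to 538. The 0 of the difference of injury effects became 1 (DESeq2), 68 (no filter) and 0 to 0. The 443 in FLS became 1091 (no filter), 32 (format block), 181 (replicate block) and 40 to 596. For gates, the counts with 1 left out were 1756 to 2532 (F1, 2616 in all), 559 to 735 (F2, 757), 293 to 463 (F3, 462), 787 to 1132 (F4, 1182), 90 to 370 (F5, 366), 69 to 129 (F6, 127) and 2671 to 3375 (FLS, 3427). Thinned gates gave 1617 in F1, 156 in F3, 241 in F5 and 58 in F6, and no filter gave 602 in F5 and 336 in F6. No format or replicate block was fitted between gates, where the library is already a block. For injury in Tom-GFP+ cells the format block takes its format term from Tom+ injured 1 against Tom+ injured 2 to 4. The count under that block therefore rests on Tom+ injured 1, the library that stood apart by its F1 and cycling cells. It does not separate format from injury in Tom-GFP+ cells.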
